A study of Rattus norvegicus with 18 samples.

Results

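Toll-like receptors (TLRs) and inflammasome genes were described here as a set of 10 genes, chosen by name for their place in 1 pathway of innate immunity. The set holds the receptors Tlr2, Tlr3, Tlr4 and Tlr7, their adaptor Myd88, the inflammasome sensor Nlrp3, its adaptor Pycard, its protease Casp1, and the cytokines Il1b and Il18. All 10 have a row in the tables of both tissues, among 32285 genes in retina and 32552 in RPE/choroid, measured in 18 libraries in all. The rule goes by name and uses no measured value, but it was written with earlier results of these data known.

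The libraries came from wild-type Fischer 344 (F344) rats, an inbred strain whose retinae degenerate with age. The study asked whether 8-aminoguanine (8-AG), an endogenous purine that inhibits purine nucleoside phosphorylase, counters that degeneration, and bulk RNA-seq was made from neural retina and from RPE/choroid, the retinal pigment epithelium with the vascular layer under it. In each tissue 3 libraries came from young rats of 4 months, 3 from aged rats of 24 months, and 3 from aged rats given 8-AG at 5 mg/kg/day in their drinking water for 8 weeks, from 22 to 24 months of age. All rats were female and no group carried a transgene. The age of the young rats is that of the labels, and the study's text gives a slightly younger one.

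TLRs recognise conserved molecules of microbes and material released from damaged cells, at the cell surface (Tlr2, Tlr4) or in endosomes (Tlr3, Tlr7), and all of these except Tlr3 signal through Myd88 to nuclear factor kappa B (NF-kB). NF-kB raises transcription of Nlrp3 and of the interleukin-1 beta precursor, and a second signal then assembles Nlrp3 and Pycard into the inflammasome, where caspase-1 cuts interleukin-1 beta and interleukin-18 into their active forms. In the eye these genes are known mainly from microglia, the resident macrophages of the retina, and from macrophages of the choroid, while Tlr3 and Tlr4 are also reported in other retinal cells and in the RPE.

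Total counts per library were 12283458 to 15644346 in retina and 28573828 to 48203050 in RPE/choroid. Levels are given as CPM, the edgeR measure that scales a gene's count to the depth of its library, here after correction by TMM, a scaling factor computed within each tissue, so CPM values are not compared between tissues or between genes. In the retina libraries 11 rod genes summed to 33095 to 57679 CPM, and in the RPE/choroid libraries 10 RPE genes summed to 6044 to 18562 CPM. Rod genes were also counted in RPE/choroid and varied widely within groups, from 1982 to 19615 CPM in young and 606 to 16452 CPM in aged libraries. The first 8-AG library of RPE/choroid had the lowest RPE sum, and a rod sum of the size seen in retina. This library stood apart, with 54060 CPM of rod genes against 606 to 19615 in the 8 others. It also had 2003 CPM of surface epithelium genes against 16.3 to 314, and 444 CPM of microglia and macrophage genes against 1250 to 2258. The 8-AG retina libraries are labelled as total RNA and the 15 others as polyA RNA, so this difference in the labels and the treatment cannot be told apart in retina. In RPE/choroid the first and second young libraries share a label number, with the letters L and R, as do the first and second aged ones. Whether such a pair is from 1 rat is not stated in the labels, so p-values measure the spread between libraries, which may be partly technical.

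Most of these genes were higher in aged than in young retina, with Tlr2 and Tlr7 furthest apart. The first question was whether the pathway differed between aged and young rats, and it was tested with edgeR's quasi-likelihood F-test on the 6 libraries, with the Benjamini-Hochberg adjusted p computed over all 14588 genes that passed edgeR's filter on low counts. Of the 10 genes 9 passed the filter, and 7 of these were higher in aged retina at an adjusted p under 0.05 and none lower, where 7.29% of all genes tested were higher and 7.26% lower. By the study's rule for a differentially expressed gene (DEG), more than 1.5-fold with P under 0.05 before adjustment, all 9 were higher and none lower, against 6.45% and 2.39% of all genes tested. In the 9 genes tested the lowest aged library exceeded the highest young library, as it did for 17.5% of all genes tested, and Il1b, outside the test, was separated by 1 count. Nlrp3, Pycard, Casp1 and Il18 had fewer than 10 counts in at least 2 of the 3 young libraries, so they passed the filter through the aged libraries, which bears on these counts. Among the 5 genes with at least 10 counts in every library, Tlr2, Tlr3, Tlr4, Tlr7 and Myd88, 5 of 5 were higher in a fit limited to such genes, where 965 of 13716 genes were. The median log2 fold change over the 9 genes was 1.46, and over all genes tested 0.0019.

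Tlr2, the surface receptor for bacterial lipoproteins, showed the largest fold change of the set in aged retina. Its levels were 0.77, 0.98 and 0.68 CPM in the young libraries, 5.36, 9.83 and 6.16 CPM in the aged ones, and 9.22, 6.42 and 5.21 CPM after 8-AG. The young libraries formed a narrow low group of 10 to 13 counts each, and the aged and treated libraries overlapped well above it. The log2 fold change of aged against young retina was 3.13 (SE 0.30, n = 3 per group, edgeR adjusted p = 0.00024), which is 8.78-fold.

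Tlr7, the endosomal receptor for single-stranded RNA, followed. Its levels were 1.77, 1.5 and 1.63 CPM in young, 9.62, 10.21 and 6.03 CPM in aged and 6.84, 9.19 and 7.96 CPM in 8-AG-treated retina. Young libraries differed little among themselves, and the third aged library was the lowest of the aged ones, yet above every young one. Tlr7 rose by 2.40 on the log2 scale (SE 0.24, edgeR adjusted p = 0.00031), or 5.26-fold.

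Tlr4 recognises bacterial lipopolysaccharide and can signal from the surface and from endosomes. It measured 1.85, 1.28 and 1.91 CPM in young, 5.36, 5.87 and 4.02 CPM in aged and 6.07, 6.18 and 3.68 CPM in 8-AG-treated retina. No aged library fell near the young range, and the third library was the lowest in both 24-month groups. The log2 fold change was 1.60 (SE 0.25, edgeR adjusted p = 0.0025).

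Tlr3 binds double-stranded RNA and signals through another adaptor, Ticam1. It measured 4.39, 4.43 and 2.99 CPM in young, 8.77, 12.1 and 9.63 CPM in aged and 9.45, 8.78 and 10.2 CPM in 8-AG-treated retina. The lowest aged library stood above the highest young one. Tlr3 rose by 1.38 (SE 0.20, edgeR adjusted p = 0.0018) on the log2 scale.

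Myd88, the adaptor that the other receptors of the set share, measured 3.93, 4.13 and 4.76 CPM in young, 8.23, 11.1 and 7.13 CPM in aged and 9.84, 7.40 and 7.09 CPM in 8-AG-treated retina. Its fold change was the smallest of the 9, with groups that did not overlap. The log2 value was 1.05 (SE 0.19, edgeR adjusted p = 0.0060), or 2.07-fold.

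The 3 inflammasome parts were near the lower limit of what these libraries can count. Nlrp3 measured 0.46, 0.68 and 0.41 CPM in young, 1.16, 2.17 and 0.90 CPM in aged and 0.999, 0.89 and 1.60 CPM in 8-AG-treated retina, from 6 to 34 counts per library. Its second aged library was far above the other aged ones. The log2 fold change was 1.46 (SE 0.44), and its edgeR adjusted p of 0.052 missed the threshold. Under 4 of 13 alternative settings Nlrp3 passed, with adjusted p values from 0.038 to 0.22 over all of them.

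Pycard, whose protein is also called ASC, measured 0.62, 0.53 and 0.48 CPM in young, 1.24, 1.47 and 1.11 CPM in aged and 1.46, 1.06 and 1.2 CPM in 8-AG-treated retina. The 3 libraries of each group lay close together. The log2 fold change was 1.24 (SE 0.34, edgeR adjusted p = 0.035). Pycard lost this call in 9 of 13 alternative settings, with each of the 6 libraries left out in turn among them, and its adjusted p reached 0.20.

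Casp1 measured 0.23, 0.60 and 1.36 CPM in young, 1.47, 2.81 and 1.66 CPM in aged and 2.08, 1.79 and 1.94 CPM in 8-AG-treated retina. The third young library was close to the lowest aged one. The log2 fold change of 1.41 (SE 0.51) did not pass (edgeR adjusted p = 0.099), and without that young library it was 2.23 with an adjusted p of 0.026, the single alternative of 13 in which Casp1 passed.

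The cytokines differed in how well they could be counted. Il18 measured 0.39, 0.90 and 0.61 CPM in young, 1.94, 2.36 and 2.08 CPM in aged and 2.77, 2.36 and 3.01 CPM in 8-AG-treated retina. Both 24-month groups were above the young one with no overlap. Il18 rose by 1.74 on the log2 scale (SE 0.34, edgeR adjusted p = 0.0079), and it passed in all 13 alternatives that could be fitted.

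Il1b, the best known product of the inflammasome, was barely detected in retina. The 3 young libraries had 0 counts of it, the aged libraries 1, 4 and 3, and the 8-AG-treated libraries 4, 5 and 1. With 3 counts assumed over the young group in place of 0, the ratio to it was 2.54 in aged and 3.39 in treated retina. These ratios allow for no sampling error in the aged and treated counts, so they are not lower bounds. Il1b did not pass the filter on low counts, and in a fit with no filter its edgeR adjusted p for aged against young retina was 0.090.

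**Figure D1:**
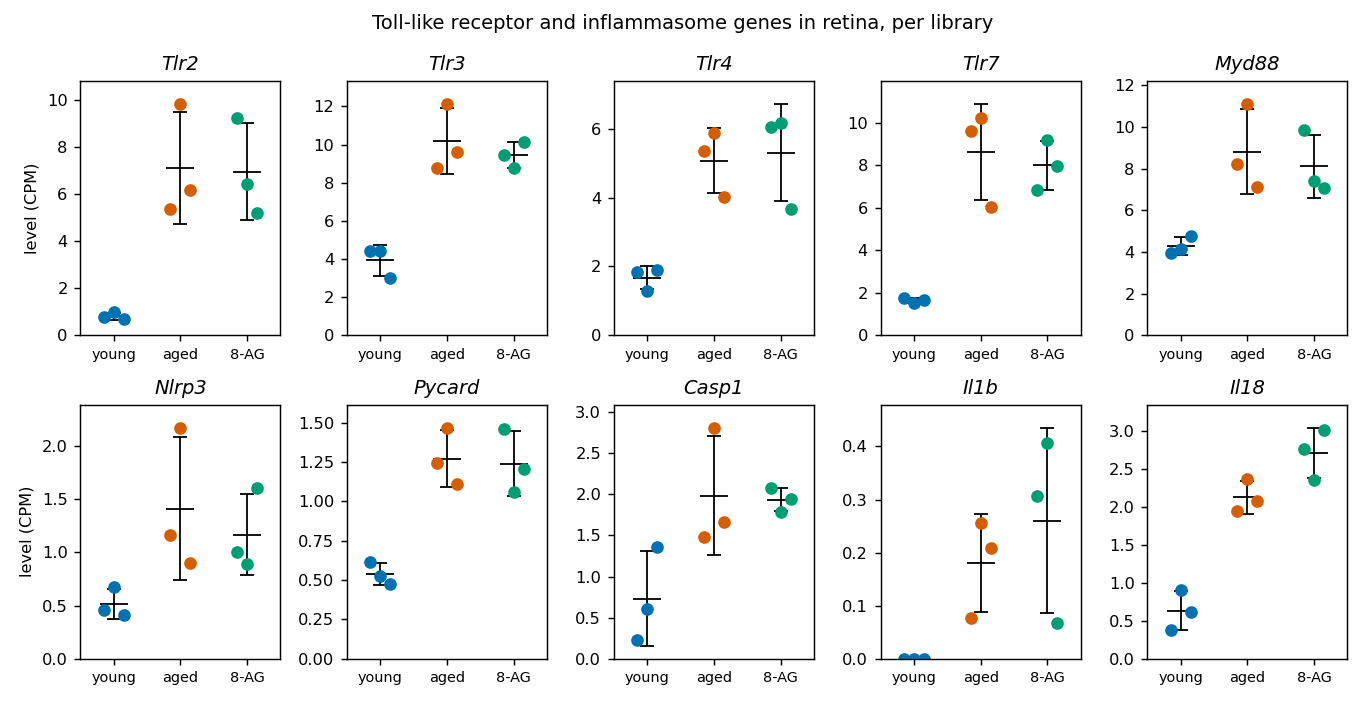
Level of each of the 10 genes in retina, in CPM on a linear axis from 0, with a panel per gene. Points are the 3 libraries of a group, from left to right replicates 1 to 3, and the bars give the mean and SD. In every panel the young points lie below all aged and all 8-AG points, and the aged and 8-AG points overlap.

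Genes that mark microglia and macrophages moved with the set. Of 13 such genes 12 were matched and 10 tested, as Cd68 and Trem2 did not pass the filter on low counts. At an edgeR adjusted p under 0.05, 10 of 10 were higher in aged retina, where 7.29% of all genes tested were. The 12 summed to 41.3 to 43.0 CPM in young, 124 to 213 CPM in aged and 140 to 148 CPM in 8-AG-treated libraries. Young counts of the single markers are not given here, so the filter may have favoured some of the 10. None of the 12 was at 0 counts in any group. In bulk tissue more cells of a type and more RNA of a gene per cell cannot be told apart. T and B cell markers summed to 4.85 to 5.17 CPM in young and 10.04 to 16.02 CPM in aged retina, with Cd3d, Cd3g, Cd8a and Ms4a1 at 0 counts in all young libraries. Of the 9 matched only 1 passed the filter, Cd4 (log2 1.48, SE 0.20, edgeR adjusted p = 0.0013), so the others were not tested. Neutrophil markers summed to 2.1 to 2.77 CPM in young and 2.42 to 5.55 CPM in aged retina, with S100a9 and Camp at 0 counts in young. Of the 2 neutrophil markers tested, Csf3r was higher (log2 1.95, SE 0.46, edgeR adjusted p = 0.020) and Ngp had a log2 fold change of -0.95 (SE 0.31, edgeR adjusted p = 0.072), lower by the DEG rule. Rod markers were lower, 52714 to 57679 CPM in young against 33095 to 37879 CPM in aged libraries. The part of these cell types in the changes of the set was not tested.

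Set against the microglia and macrophage sum of the same library, the genes did not keep 1 ratio. Per 100 CPM of that sum, Tlr2 was at 1.65 to 2.28 CPM in young and 3.51 to 4.99 CPM in aged retina, and Tlr7 at 3.51 to 4.12 CPM and 4.79 to 6.31 CPM, both with no overlap between the age groups and aged above young. Myd88 went the other way, with 9.14 to 11.5 CPM in young and 5.21 to 5.77 CPM in aged retina per 100 CPM of markers. Pycard did the same, with 1.15 to 1.43 CPM and 0.688 to 0.897 CPM. Tlr3, Tlr4, Nlrp3, Casp1 and Il18 overlapped between the age groups on this scale. These ratios are a description with no test, and the share of all genes that separate on this scale was not computed. A gene that rises by a smaller factor than the marker sum falls on this scale.

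The promoters of Tlr2, Tlr7, Myd88 and Casp1 are shown because these genes cover the range of the aging changes, and because their sequences hold each of the 3 motifs searched. Each is the 250 bases before the gene's start in RefSeq, read 5′ to 3′ on the gene's strand in build GRCr8, which is not the build of the data (Rnor_6.0). Capitals mark matches to the NF-kB consensus in Tlr2, to the PU.1 core GAGGAA in Tlr7 and Casp1, and to the interferon-stimulated response element core (GAAA, any 2 bases, GAAA) in Myd88 and Casp1, on either strand. The Tlr2 promoter is at chr2:171504558-171504807 (minus strand), Tlr7 at chrX:30644176-30644425 (plus), Myd88 at chr8:127956231-127956480 (minus) and Casp1 at chr8:10872580-10872829 (plus).
Tlr2: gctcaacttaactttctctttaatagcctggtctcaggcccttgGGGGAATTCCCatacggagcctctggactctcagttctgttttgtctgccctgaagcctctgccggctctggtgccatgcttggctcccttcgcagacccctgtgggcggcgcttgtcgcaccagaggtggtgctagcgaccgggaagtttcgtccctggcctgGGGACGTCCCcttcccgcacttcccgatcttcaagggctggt
Tlr7: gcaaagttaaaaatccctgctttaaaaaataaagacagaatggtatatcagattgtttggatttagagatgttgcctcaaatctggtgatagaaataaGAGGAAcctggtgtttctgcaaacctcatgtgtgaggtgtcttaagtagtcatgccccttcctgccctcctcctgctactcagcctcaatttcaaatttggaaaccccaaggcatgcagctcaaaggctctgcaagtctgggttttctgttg
Myd88: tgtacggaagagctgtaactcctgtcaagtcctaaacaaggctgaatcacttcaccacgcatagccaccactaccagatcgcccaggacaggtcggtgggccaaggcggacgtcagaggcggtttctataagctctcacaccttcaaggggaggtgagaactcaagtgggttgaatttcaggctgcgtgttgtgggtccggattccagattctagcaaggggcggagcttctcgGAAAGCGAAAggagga
Casp1: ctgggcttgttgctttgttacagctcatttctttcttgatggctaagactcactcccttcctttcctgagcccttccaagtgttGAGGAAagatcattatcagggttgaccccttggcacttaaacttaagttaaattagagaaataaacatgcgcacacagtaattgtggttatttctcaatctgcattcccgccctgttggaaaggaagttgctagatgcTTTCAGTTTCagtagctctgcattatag

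All 10 genes had a promoter among the 33469 searched. The NF-kB consensus was found in 6.33% of all promoters and in 1 of the 10, Tlr2, where overlapping matches begin 206 and 205 bases before the start and another begins 42 bases before it. The interferon-stimulated response element core was found in 3.41% of all promoters and in 2 of the 10, beginning 16 bases before the start in Myd88 and 28 bases before it in Casp1. The core recognised by PU.1, the myeloid transcription factor encoded by Spi1, was found in 23.3% of all promoters and in 5 of the 10, Tlr3, Tlr4, Tlr7, Nlrp3 and Casp1. Pycard, Il1b and Il18 held none of the 3 in this window. A match describes the letters and is not a bound site.

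The rest of the pathway was followed in 7 lists of 110 genes, of which 93 were matched and 72 tested in aged against young retina. At an adjusted p under 0.05, 22 of the 72 were higher and 1 lower, where 7.29% of all genes tested were higher and 7.26% lower, the shares to hold beside each list's count below. Ly86, Mefv and Il18rap had at most 6 counts in any young library and passed the filter through the aged libraries, so these counts carry the same limit as those of the set. The plot of the pathway lists shows where these lie.

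**Figure D2:**
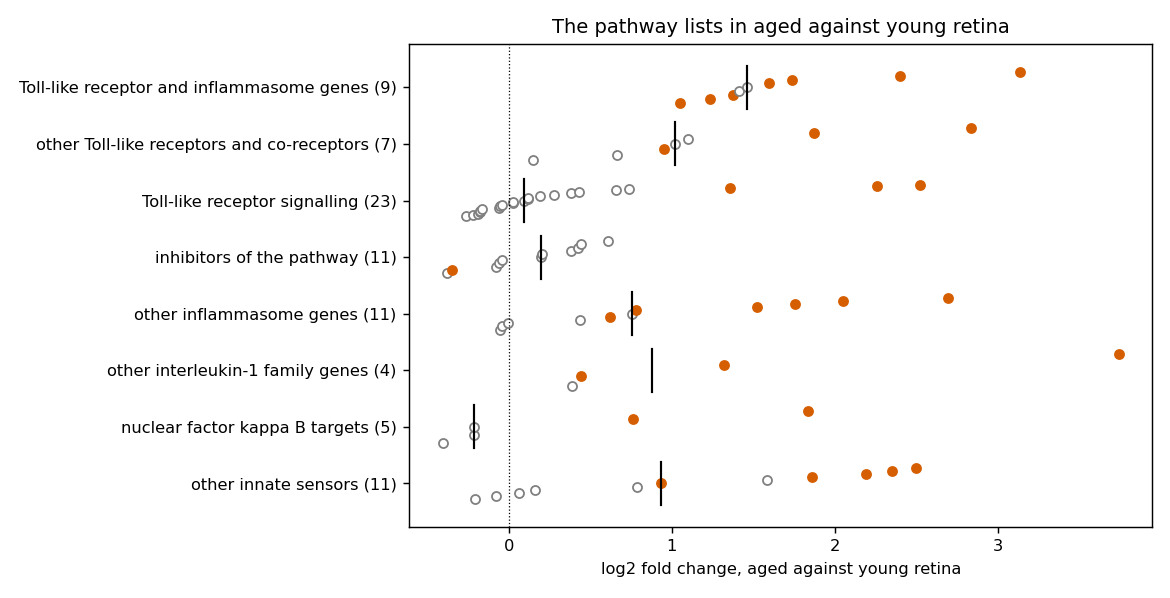
Log2 fold change of aged against young retina for the genes of each list, with the number tested in brackets. Filled points passed an adjusted p of 0.05 in edgeR's test, open points did not, and the black line is the list's median. The median is 1.46 for the 9 genes of the set that were tested and 0.0972 for the 23 genes of Toll-like receptor signalling.

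Among other Toll-like receptors and co-receptors 3 of 7 were higher and none lower, and the median log2 value was 1.02. They were Ly86, which partners the receptor-like Cd180 (log2 2.83, SE 0.45), Cd180 itself (log2 1.87, SE 0.34) and Unc93b1, the chaperone that carries endosomal TLRs such as Tlr3 and Tlr7 (log2 0.95, SE 0.17). Their edgeR adjusted p values were 0.0028, 0.0060 and 0.0046. Tlr1, the partner of Tlr2, was not counted in any young library and gave 8, 21 and 14 counts in the aged.

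Of 23 signalling genes 3 were higher and none lower: the interferon regulatory factors Irf7 (log2 2.52, SE 0.27) and Irf5 (log2 2.26, SE 0.34), which act downstream of TLRs, and the NF-kB subunit Nfkb2 (log2 1.36, SE 0.29). The list's median log2 fold change was 0.0972. The other 20 did not pass, and 9 of the 23 had an unadjusted P under 0.05, as 4266 of all 14588 genes tested did. The kinase Irak4 (log2 0.66, SE 0.22, edgeR adjusted p = 0.077) met the DEG rule, and the ubiquitin ligase Traf3 (log2 -0.26, SE 0.078) had an edgeR adjusted p of 0.052. Of 11 inhibitors, with a median log2 fold change of 0.197, Nfkbie (log2 0.61, SE 0.22, edgeR adjusted p = 0.0996) was higher by the DEG rule alone. Only 1 inhibitor passed, and it was lower: Nfkbia, which holds NF-kB in the cytoplasm, had 58.3, 53.8 and 60.0 CPM in young retina. Its aged levels were 41.2, 44.2 and 49.8 CPM, and the log2 fold change was -0.35 (SE 0.082, edgeR adjusted p = 0.020).

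Of 11 other inflammasome genes 6 were higher and none lower. Casp4, the caspase of the non-canonical inflammasome, had a log2 fold change of 2.05 (SE 0.35). Mefv, the sensor pyrin, had 2.69 (SE 0.47). P2rx7, an ATP-gated channel that triggers Nlrp3, had 1.75 (SE 0.35), and Txnip, which binds Nlrp3, had 0.62 (SE 0.14). The edgeR adjusted p values of these 4 genes lay between 0.0042 and 0.018.

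Of 4 other interleukin-1 family genes 3 were higher and none lower. They were the receptor chain Il1r1 (log2 1.32, SE 0.24), the alarmin Il33 (log2 0.44, SE 0.056) and Il18rap, the signalling chain of the interleukin-18 receptor. Il18rap gave 0, 1 and 2 counts in young retina against 11, 25 and 11 in aged retina, so its test was favoured by the filter. Among 5 NF-kB targets the adhesion molecule Icam1 (log2 1.83, SE 0.19) and the NF-kB cofactor Nfkbiz (log2 0.76, SE 0.22) were higher. The median log2 fold change of those 5 was -0.21.

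Of 11 other innate sensors 5 were higher and none lower. Those with the smallest P were the cytosolic RNA sensors Ddx58 (log2 2.19, SE 0.26), Dhx58 (log2 1.86, SE 0.22) and Ifih1 (log2 0.93, SE 0.17), and Nlrc5, a transactivator of MHC class I genes (log2 2.5, SE 0.34). The edgeR adjusted p values of these 4 genes lay between 0.00061 and 0.0051.

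The second question was whether 8-AG moved these genes in aged retina. No gene of the 9 tested passed in edgeR's test, at an adjusted p under 0.05 or by the DEG rule, and none had an unadjusted P under 0.05. Over all 14631 genes tested the adjusted p passed for 0.0205% as higher and 0.0% as lower, and 0.526% were higher and 0.431% lower by the DEG rule. The same fit called 3 genes in all and gave 537 an unadjusted P under 0.05, and DESeq2 called 18 genes, none of them among the 9. This comparison uses the same aged libraries as the first, so the values of the comparisons are set side by side and not correlated.

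In every one of the 10 genes the treated and aged libraries overlapped, while for 4.57% of all genes tested every treated library lay above every aged one. Log2 fold changes of the 9 ran from -0.27 (Nlrp3, SE 0.40) to 0.35 (Il18, SE 0.23), with 2 above 0 and 7 below, a median of -0.04, and P between 0.16 and 0.89. These directions changed when single libraries were left out. Without the second aged library all 9 were above 0, from 0.04 (Tlr7) to 0.44 (Il18), and the lowest edgeR adjusted p was 0.93. That library had the highest microglia and macrophage sum (213 CPM against 124 and 153). With 1 library left out in turn, Tlr4 ran from -0.09 to 0.27 and Tlr2 from -0.30 to 0.27. For Tlr2, which had the largest aging change, the value was -0.04 with an SE of 0.28, and for Tlr7 -0.11 with an SE of 0.21. For Myd88 it was -0.13 (SE 0.20) and for Tlr4 0.06 (SE 0.24). That no gene passed does not show that treated and aged retina were alike.

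Il18 was the member with the lowest P in this comparison. Its treated levels of 2.36 to 3.01 CPM reached above the aged range of 1.94 to 2.36 CPM and met it at the lower end, with an unadjusted edgeR P of 0.16. Against the young retina of the same tissue, every treated library was above every young library in the same 9 genes, as it was for 16.9% of all genes tested, and in Il1b by 1 count.

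Among the 79 tested genes of the pathway lists none was called after 8-AG. The DEG rule named 2, both lower: Ly86 (log2 -0.90, SE 0.33) and Ddx58 (log2 -0.66, SE 0.23), each with an edgeR adjusted p of 0.996. Ly86 had 2.1, 2.55 and 1.73 CPM in aged and 0.69, 1.38 and 1.34 CPM in 8-AG-treated retina. Surface epithelium markers were at 4.19 to 7.66 CPM in aged and 17.0 to 36.6 CPM in treated retina, and their part in these values was not tested.

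**Figure D3:**
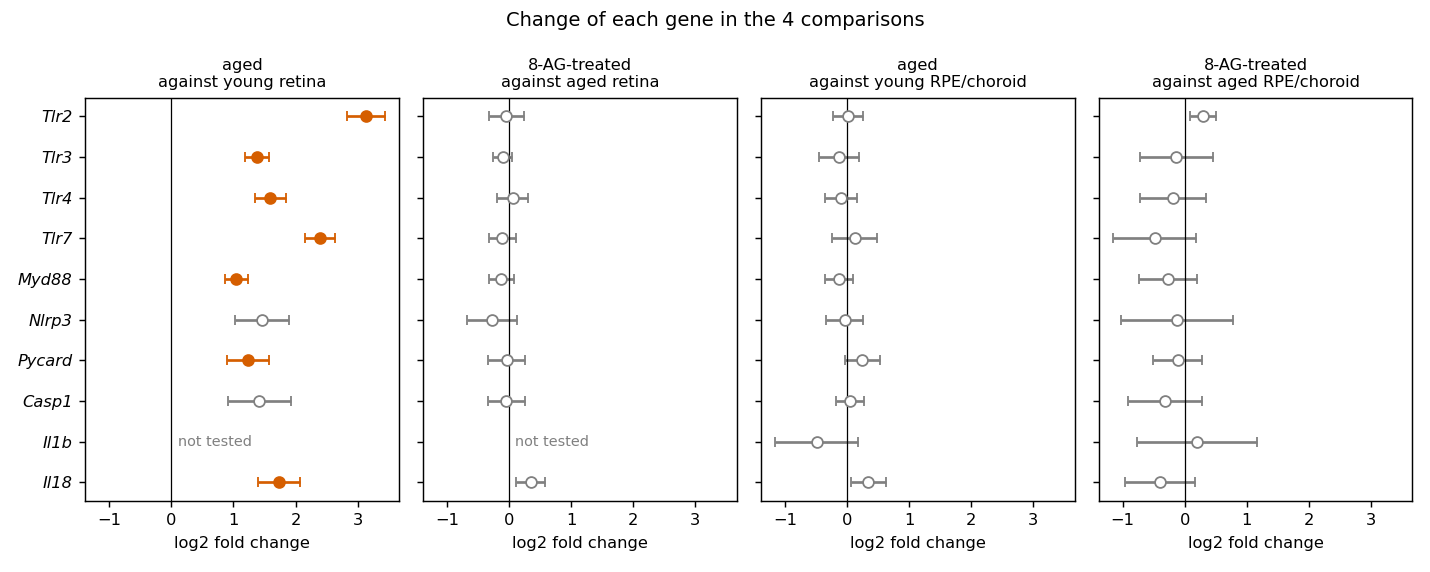
Log2 fold change of each gene with its SE as a horizontal bar, in the 4 comparisons. Filled points passed an adjusted p of 0.05 in edgeR's test and open points did not. In aged against young retina 9 points lie between 1.05 and 3.13 with 7 filled, and in the other 3 panels none is filled and the points lie between -0.49 and 0.35.

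In RPE/choroid none of the 10 genes passed in aged against young rats. All 10 passed the filter, none was called by edgeR at an adjusted p under 0.05 or by the DEG rule, and none had an unadjusted P under 0.05. Over all 16047 genes tested 0.0% were called in either direction, 0.717% were higher and 0.636% lower by the DEG rule, and 341 genes had an unadjusted P under 0.05. DESeq2 called 34 genes in all and none of the 10. The aged and young libraries overlapped in all 10, and 2.89% of all genes tested had their 3 aged libraries above all young ones. Rod genes summed to 1982 to 19615 CPM in the young and 606 to 16452 CPM in the aged libraries, and their part in this comparison was not tested. That none passed does not show that the age groups were alike.

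Log2 fold changes ran from -0.49 (Il1b, SE 0.67) to 0.34 (Il18, SE 0.28), with 5 above 0, 5 below and a median of -0.01 against 0.02 for all genes. The value of Il1b rested on single libraries, at 0.53 without the third young library and -0.86 without the first. Tlr2 measured 14.98, 17.0 and 24.7 CPM in young and 15.9, 22.2 and 19.5 CPM in aged RPE/choroid. The groups covered nearly the same range, with a log2 fold change of 0.02 (SE 0.24). Tlr7 measured 8.39, 9.04 and 11.8 CPM in young and 9.52, 15.8 and 6.45 CPM in aged libraries. The aged libraries of Tlr7 enclosed the young ones on both sides (log2 0.12, SE 0.37).

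Il1b was well counted in this tissue. Its levels were 12.5, 17.5 and 61.7 CPM in young and 12.3, 23.5 and 30.1 CPM in aged RPE/choroid. The third young library was the highest of all 9 libraries, and the young libraries spread more widely than the aged ones. Il18 measured 10.3, 11.3 and 14.5 CPM in young and 10.9, 20.7 and 14.3 CPM in aged libraries, with a single aged library above the young range. Myd88, Nlrp3, Pycard and Casp1 had log2 fold changes between -0.13 and 0.25, and Tlr3 and Tlr4 -0.12 and -0.10.

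After 8-AG none of the 10 genes was called in RPE/choroid, by either rule, and none had an unadjusted P under 0.05. Over all 16257 genes tested 0.0% were called by edgeR in either direction, 1.24% were higher and 0.418% lower by the DEG rule, and 274 had an unadjusted P under 0.05. DESeq2 called 41 genes in all and none of the 10. Log2 fold changes ran from -0.48 (Tlr7, SE 0.66) to 0.29 (Tlr2, SE 0.21), with 2 above 0, 8 below, a median of -0.16, and 0.01 for all genes.

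The direction of most of these values turned when 1 library was left out. The first 8-AG library, the one with high rod and surface epithelium markers, was below all 8 other RPE/choroid libraries in 9 of the 10 genes. Nlrp3 was at 0.61 CPM there and at 9.57 and 8.25 CPM in the other treated libraries, and Il1b at 2.11 against 40.1 and 33.5 CPM. Without this library 9 of the 10 log2 fold changes were above 0, from -0.06 (Tlr7) to 0.74 (Il1b), with a median of 0.20, a lowest unadjusted edgeR P of 0.12 and a lowest adjusted p of 0.92. The microglia and macrophage markers of that library were also the lowest, and the part of tissue content in these values was not tested.

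Tlr2 was the exception in that library. Its treated levels were 22.5, 23.2 and 23.6 CPM against 15.9, 22.2 and 19.5 CPM in aged RPE/choroid, so every treated library lay above every aged one, as it did for 2.09% of all genes tested. The log2 fold change was 0.29 (SE 0.21) and did not pass, and it was 0.28 without the first treated library.

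**Figure D4:**
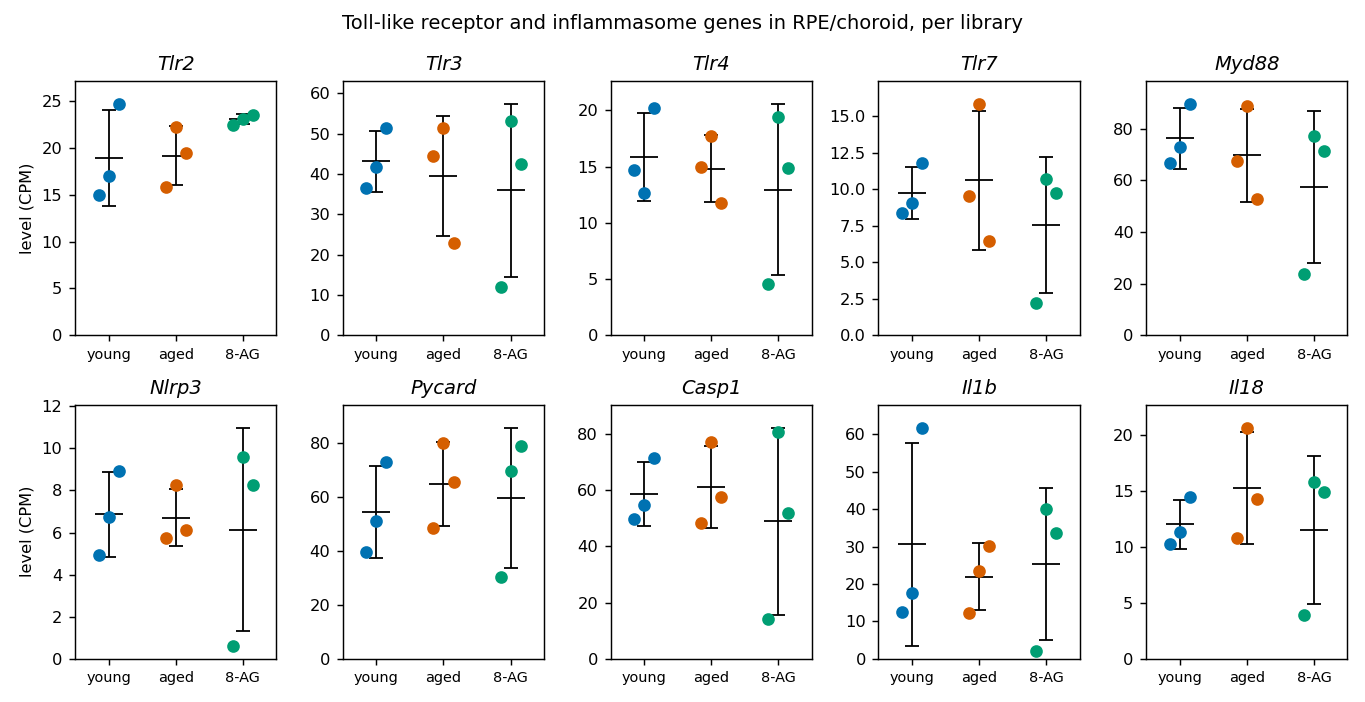
Level of each of the 10 genes in RPE/choroid, in CPM on a linear axis from 0, with a panel per gene. Points are the 3 libraries of a group, from left to right replicates 1 to 3, and the bars give the mean and SD. The groups overlap except for Tlr2 after 8-AG, and the leftmost 8-AG point is the lowest of all 9 in 9 of the 10 panels.

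In the other 93 matched genes of the pathway 90 were tested for aging in RPE/choroid and none was called by edgeR. Tlr13 (log2 -0.56, SE 0.22) and Nek7, a kinase that binds Nlrp3 (log2 -0.51, SE 0.20), had unadjusted P values of 0.043 and 0.039 and adjusted p values close to 1. After 8-AG 88 were tested and none called. Irf7 (log2 0.79, SE 0.30) and the interleukin-33 receptor Il1rl1 (log2 -1.35, SE 0.52) had unadjusted P values of 0.038 and 0.043.

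The aging changes of both tissues were then compared directly, with an interaction term in 1 fit of 12 libraries over 16792 genes. The log2 difference, retina change minus RPE/choroid change, passed for 1 of the 10 genes, and 0.155% of all genes tested passed in that direction. It was Tlr2, with a difference of 3.13 (SE 0.41, edgeR adjusted p = 0.036). The fit counted RPE/choroid libraries that share a label number as separate, and summing them was not tried for this comparison. By the DEG rule 9 of the 10 changed more upward in retina and none the other way, against 5.43% and 1.35% of all genes tested, and Il1b did not meet the rule. In a fit limited to genes with at least 10 counts in every library, Tlr2, Tlr3, Tlr4, Tlr7 and Myd88 remained and 5 of 5 met the rule as higher, as 531 of 12364 genes did. The microglia and macrophage markers moved with the set in this test, with 11 of 12 higher by the DEG rule, a median log2 difference of 1.91 and Ptprc called (edgeR adjusted p = 0.0496), and their part was not tested. Of the 89 pathway list genes tested 29 were higher by the DEG rule and 1, Tlr1, was called. Tlr1 was not counted in any young retina library, so its call rests on an empty group and no size is given.

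For the 8 others with counts in every group the differences ran from 1.004 (Pycard, SE 0.41) to 2.29 (Tlr7, SE 0.48), with unadjusted edgeR P values from 0.00070 to 0.047 and adjusted p values from 0.089 to 0.59. Tlr7 and Tlr4 (log2 difference 1.70, SE 0.37) were nearest to the threshold, with adjusted p values of 0.089 and 0.097. For Il1b no size is given, because the young retina had 0 counts. The call of Tlr2 was kept in 6 of 17 alternative settings, where its difference lay between 2.82 and 3.30 in all 17 and its adjusted p reached 0.12. Library preparation and counting also differ between the tissues, so a preparation effect that acted differently on young and aged libraries cannot be told apart from a tissue difference.

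The genes whose levels ran most like those of the set were found by the Pearson correlation with the mean of the standardised log2 CPM of the members with at least 1 CPM on average, among genes outside the lists. In retina, over 9 libraries and 13042 genes, the highest 5 were Ctsc, a lysosomal protease of immune cells (r = 0.995), Osmr, the oncostatin M receptor (0.991), Cp, the copper carrier ceruloplasmin (0.991), Fcgr2b, an inhibitory receptor for immunoglobulin G (0.991), and B2m, the light chain of MHC class I (0.990). The young libraries form a cluster of their own, and within the 6 libraries of 24 months alone r lay between 0.897 and 0.992. Ctsc measured 5.92 to 6.24 CPM in young, 15.7 to 27.5 CPM in aged and 17.9 to 20.6 CPM in 8-AG-treated retina, the low, high and high pattern of the set.

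In RPE/choroid, over 9 libraries and 12832 genes, the highest were Spi1, which encodes the myeloid factor PU.1 (r = 0.995), Ncf1, a subunit of the phagocyte NADPH oxidase (0.994), Mob3a (0.994), Mapk3 (0.994) and Bcl2l12 (0.992). Without the library that stood apart r lay between 0.973 and 0.987 over 8 libraries. Spi1 was at 23.6 to 43.5 CPM in young, 24.8 to 41.8 CPM in aged and 7.49 to 41.8 CPM in treated RPE/choroid. All genes of a tissue share the same libraries, and these correlations are a description of likeness.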

How the data were processed

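For retina the authors deposited expected counts estimated by RSEM, of which 11.5% were not whole numbers, and these were rounded here. For RPE/choroid they deposited raw counts, a table per pair of groups. The submitters' processing notes list Bowtie2 2.1.0, RSEM 1.2.15, edgeR and build Rnor_6.0 without their roles, and the counting program of the RPE/choroid tables is not given in the sources used here. The protocol describes poly-A capture for retina and polyA selection with full-length enrichment for RPE/choroid, while the 8-AG retina libraries are labelled total RNA. A deposited table of TMM-normalized signal, made by the authors, and the symbol columns of their RPE/choroid tables served only to name genes. The 10 genes were named from the latter and had the same rounded counts in the former. Deposited tables also hold the authors' fold changes and p-values, which were not used.

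Fits used edgeR 4.0.16 under R 4.3.3, on the 6 libraries of a comparison (filterByExpr, TMM, estimateDisp, glmQLFit with robust=TRUE, glmQLFTest), with Benjamini-Hochberg adjustment over all genes tested, and the interaction on 12 libraries. The scripts were tested on simulated data. DESeq2 1.42.0 was an alternative. The genes of the set and the lists were chosen with earlier results of these data known, so no list is independent evidence. All 10 genes are described. Of the other lists at most the 4 genes with the smallest P that passed are named for retina, and for RPE/choroid up to 2 per list with a P under 0.05. Tlr1, Irak4, Traf3, Nfkbie, Ptprc, Cd4, and Ly86 and Ddx58 after 8-AG, were named after their values were seen. Likeness used log2 CPM with a prior count of 2 and genes with a mean of at least 1. Figures were drawn with matplotlib 3.10.9.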

Additional observations from a re-analysis of the deposited data

Results flagged for a closer look

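Tlr2 was flagged because its aging change differed between the tissues by the interaction test. Tlr2 was 3.13 higher on the log2 scale in the retina change than in the RPE/choroid change (SE 0.41, n = 3 libraries per group and tissue, edgeR adjusted p = 0.036). It rose in retina in 3 of 3 aged libraries against all young ones, and in RPE/choroid its aged and young libraries overlapped. Single libraries far from the others were not looked for by a test, since all groups have 3 libraries.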

How the results depend on the processing

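In aged against young retina 6 to 8 genes were called over the alternatives that tested 9 or 10, 6 to 7 with 1 library left out, and 5 of 5 tested with at least 10 counts required in every library. Tlr2, Tlr3, Tlr4, Tlr7 and Myd88 were called in 14 of 14 alternatives and Il18 in 13 of 13. Over all comparisons and alternatives 693 values of single genes were recomputed. Of these 617 kept direction and side of the threshold, 20 lost a call, 8 gained one, and 48 changed sign among values that were never called, the cause of which was not tested. In the other 3 pairwise comparisons 0 of the 10 were called under every alternative run. For the tissue difference in aging 1 gene was called, against 0 with RLE size factors, 3 with DESeq2 (Tlr2, Tlr4 and Tlr7), and 0 to 2 with 1 library left out. It was 0 without young retina 1, 2 or 3, aged retina 1 or 2, young RPE/choroid 1, 2 or 3, or aged RPE/choroid 1 or 3, and 2 without aged RPE/choroid 2. A left-out library leaves fewer samples, and the cause of the other shifts was not tested.

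Replicate numbers were not treated as pairs, because the groups differ in age or treatment and so came from different rats. Deviations of same-numbered libraries correlated between -0.65 and 0.74, which with 3 libraries per group cannot decide whether the numbers hold a pairing. With the replicate number as a block 7 genes were called in aged against young retina, with Nlrp3 in and Pycard out, and 0 in the other 3 pairwise comparisons. The tissue difference in aging was not fitted with a block, nor with RPE/choroid libraries of a shared label number summed. Counts per young retina library were 0 to 20 for Nlrp3, Pycard, Casp1 and Il1b, which limits the precision of their values.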
